A study of Rattus norvegicus with 6 samples.

Results

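The CCN family of matricellular genes was examined in cultured newborn rat ovaries, and the family includes the gene of connective tissue growth factor (CTGF), the protein added to the cultures. The members were taken by name, as probe sets that the array annotation gives the single symbol Ccn1 (older symbol Cyr61), Ccn2 (Ctgf), Ccn3 (Nov), Ccn4 (Wisp1) or Ccn5 (Wisp2). Each of the 5 genes had 1 such probe set, so the family made up 5 of the 14324 named genes and 5 of the 27342 probe sets on the array, and 0 probe sets with several symbols carried a member's name. The sixth family gene, Ccn6 (Wisp3), was not taken as a member. It was on a list of genes that share a protein module with the family, but no probe set was found under the name Ccn6.

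Whole ovaries of female Sprague-Dawley rats were removed on postnatal day 0 and held in organ culture for 24 h. The control ovaries received no treatment and the treated ovaries received recombinant human CTGF at 500 ng/ml. Each group had 3 samples, a sample was a pool of ovaries from several pups of the same litter that shared a culture well, and 1 control and 1 CTGF sample came from each of 3 organ culture date batches. Since the ovaries were whole, the arrays measured oocytes, pre-granulosa cells, stroma, vessels and blood cells together, and fewer cells of a type and less RNA per cell cannot be told apart.

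CCN proteins are secreted into the extracellular matrix, where they change how cells respond to adhesion and to growth factors rather than serving as structural parts of the matrix. They are built from an insulin-like growth factor binding module, a von Willebrand factor type C module, a thrombospondin module and a C-terminal cystine knot, and they act through integrins, heparan sulfate proteoglycans and receptors of the LRP family. Ccn1 and Ccn2 are quickly transcribed in many cells after stretch, serum or TGFβ, through SMAD proteins, SRF and the YAP-TEAD complex. In the ovary, oocyte nests are broken down and basement membranes are rebuilt as primordial follicles assemble, and progesterone, TGFβ and CTGF are studied there as signals of this process. The comparison described here asked whether the ovary changed its own CCN transcripts when CTGF protein was supplied. The array reads rat transcripts and does not see the added protein.

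The promoter sequences of Ccn2 and Ccn1 are shown because both genes are classical targets of the TEAD factors, whose core site is GGAATG, and the transcripts of these factors are described further on. RefSeq promoter entries were matched for 2 of the 5 members. The 250 bases before the start of transcription are given 5′ to 3′ in the direction of the gene, from the GRCr8 assembly, on the minus strand at chr1:22624615-22624864 for Ccn2 and at chr2:237225690-237225939 for Ccn1. Capitals mark GGAATG or its reverse complement.
Ccn2: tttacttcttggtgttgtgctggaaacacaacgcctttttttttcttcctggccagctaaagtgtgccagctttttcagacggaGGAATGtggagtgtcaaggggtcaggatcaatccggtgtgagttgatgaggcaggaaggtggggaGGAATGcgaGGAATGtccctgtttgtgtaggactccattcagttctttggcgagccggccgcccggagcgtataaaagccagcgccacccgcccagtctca
Ccn1: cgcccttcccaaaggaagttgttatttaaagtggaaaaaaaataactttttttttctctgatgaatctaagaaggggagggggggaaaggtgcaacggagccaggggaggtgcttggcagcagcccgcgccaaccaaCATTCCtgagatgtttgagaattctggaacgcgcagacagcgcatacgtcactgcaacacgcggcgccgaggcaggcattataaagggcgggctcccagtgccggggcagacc

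The Ccn2 window held GGAATG 3 times on the strand of the gene, and the first of these began 166 bases before the start. The Ccn1 window held the motif 1 time, on the opposite strand, at 113 to 108 bases before the start. Searched on both strands, the motif was present in 12.1% of the 33469 promoter windows of the same length, and 27 of these windows held it 3 or more times. TATAAA lay 31 to 26 bases before the start in Ccn2 and 34 to 29 bases before it in Ccn1, and was present in 12.9% of all windows. The SMAD core CAGAC was present 1 time in Ccn2 and 2 times in Ccn1, and in 42.9% of all windows. A CArG box, the site of SRF, was found in neither window and in 1.5% of all windows. None of these matches overlapped another. They describe letters and do not show that a factor was bound.

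No change with CTGF was detected in any of the 5 CCN transcripts by the test used, which does not show that they were unchanged. The comparison was fitted in limma with a term for the culture batch, as the methods of the study block for it, and p-values were adjusted by Benjamini-Hochberg over all probe sets. With this test 0 of the 5 members passed an adjusted p of 0.05, and 0% of all probe sets did. At an unadjusted p under 0.05, 0 of the 5 passed in limma, against 3.35% of all probe sets, and 0 passed in the 2-way test of the methods, against 4.2%. The study's criteria add to this p a ratio of un-logged means over 1.2 or under 0.83 and a difference of un-logged means over 10. They called 0.11% of all probe sets with the p of the 2-way test and 0.435% with the p from limma, and no member with either. Of the 5 means, 4 were below control, where 51.1% of all probe sets were. The 5 mean differences lay between -0.08 and 0.09 on the log2 scale, where all probe sets had quartiles of -0.06 and 0.05. The median of the members was -0.06, beside -0.003 for all probe sets. The exact permutation test over the 3 pairs of arrays cannot give a two-sided p below 0.25.

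The deposited log2 signals had a property that bears on every spread below. Averaged over a pair of arrays, every probe set had the same value in all 3 batches to within 0.005. The arrays of a pair therefore mirror each other, the SDs of the groups are not independent measures of spread, and differences between culture dates were no longer in the values. Array medians lay between 5.82 and 5.84. The background level was read from 47 genes that are typical of other organs, such as rhodopsin-associated genes of the retina, digestive enzymes of the pancreas and surfactant genes of the lung, and their 95th percentile was 5.41 on the log2 scale. Of all probe sets, 55.7% lay above that level. The markers of the labelled tissue were present, with 10 of 10 measured oocyte genes and 9 of 10 measured pre-granulosa genes above it. Foxl2, Nobox and Figla had no named probe set.

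Ccn2, the gene of CTGF itself, gave a low signal in these ovaries. Its log2 signal was 5.43, 5.31 and 5.34 in the control ovaries of culture batches 1, 2 and 3 and 5.23, 5.35 and 5.32 in the CTGF ovaries. The groups overlapped. The lowest CTGF value and the highest control value came from the same batch, which only restates that the pair means were equal. Control ovaries averaged 5.36 ± 0.06 (SD, n = 3) and CTGF ovaries 5.30 ± 0.06 (SD, n = 3), a difference of -0.06 with a standard error of 0.07 (adjusted p = 0.994, limma). The 95% interval of the ratio ran from 0.846 to 1.09 times control, so it lay within the study's limits of 0.83 and 1.2. The difference was -0.20, 0.04 and -0.02 in batches 1, 2 and 3, and without batch 1 its mean was 0.01. The mean signal of Ccn2 lay 0.08 below the level taken for background, where differences in transcript can be understated.

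Ccn1 encodes CYR61, an immediate early protein that promotes adhesion and the growth of vessels. Its log2 signal was 6.97, 6.89 and 6.78 in control ovaries of batches 1, 2 and 3 and 6.88, 6.95 and 7.07 with CTGF. It was the only member with a mean above control, and the groups overlapped. The difference was 0.09 with a standard error of 0.09 (adjusted p = 0.994, limma), and the interval of the ratio from 0.915 to 1.23 reached past the study's limit of 1.2. This mean came mostly from batch 3, with 0.29, after -0.09 in batch 1 and 0.06 in batch 2, and without batch 3 it was -0.02. In batch 3, 4.53% of all probe sets had a difference as high or higher. The signal of Ccn1 was 1.52 above the background level.

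Ccn3 encodes NOV, which in several tissues opposes the matrix-forming action of CTGF. Its log2 signal was 7.10, 7.06 and 7.03 in control ovaries and 6.95, 6.99 and 7.02 with CTGF. It was the only member whose groups did not overlap, which in these values only restates that all 3 paired differences were below 0. In these data 20.3% of all probe sets had groups that did not overlap and 10.9% did so with CTGF lower, so 1 of 5 members was near the background. The paired differences were small, -0.15, -0.07 and -0.01, and their mean was -0.08 with a standard error of 0.07 (adjusted p = 0.994, limma). The exact permutation test gave p = 0.25, two-sided, the smallest that 3 pairs allow. The interval of the ratio ran from 0.848 to 1.06. Of the alternatives to the test, a fit without the batch as a block gave the smallest unadjusted p for Ccn3 in limma, 0.0575.

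Ccn5 encodes WISP2, the family member that lacks the C-terminal cystine knot and restrains the growth of smooth muscle cells. Its log2 signal was 6.16, 6.03 and 6.09 in control ovaries and 5.99, 6.12 and 6.06 with CTGF. The difference was -0.04 with a standard error of 0.08 (adjusted p = 0.994, limma), the smallest of the family. Its interval in the ratio ran from 0.859 to 1.11, again within the study's limits. The paired differences of -0.17, 0.09 and -0.03 had both signs, and without batch 1 the mean was 0.03.

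Ccn4 encodes WISP1, a target of WNT signaling that is made by fibroblasts and osteoblasts. Its log2 signal was 5.48, 5.41 and 5.69 in control ovaries of batches 1, 2 and 3 and 5.51, 5.58 and 5.30 with CTGF. The batch 3 pair held both the highest control and the lowest CTGF value, which only restates that the pair means were equal. The paired differences were 0.03, 0.17 and -0.39, and their range of 0.56 was wider than that of 92.7% of all probe sets. The mean of -0.06 had a standard error of 0.11 (adjusted p = 0.994, limma) and an interval of the ratio from 0.790 to 1.16, the widest of the family and the only one to pass the study's limit of 0.83. Without batch 3 the mean was 0.10. The signal of Ccn4 lay 0.09 above the background level, and below it when the level was set by 1121 olfactory receptor probe sets.

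**Figure D1:**
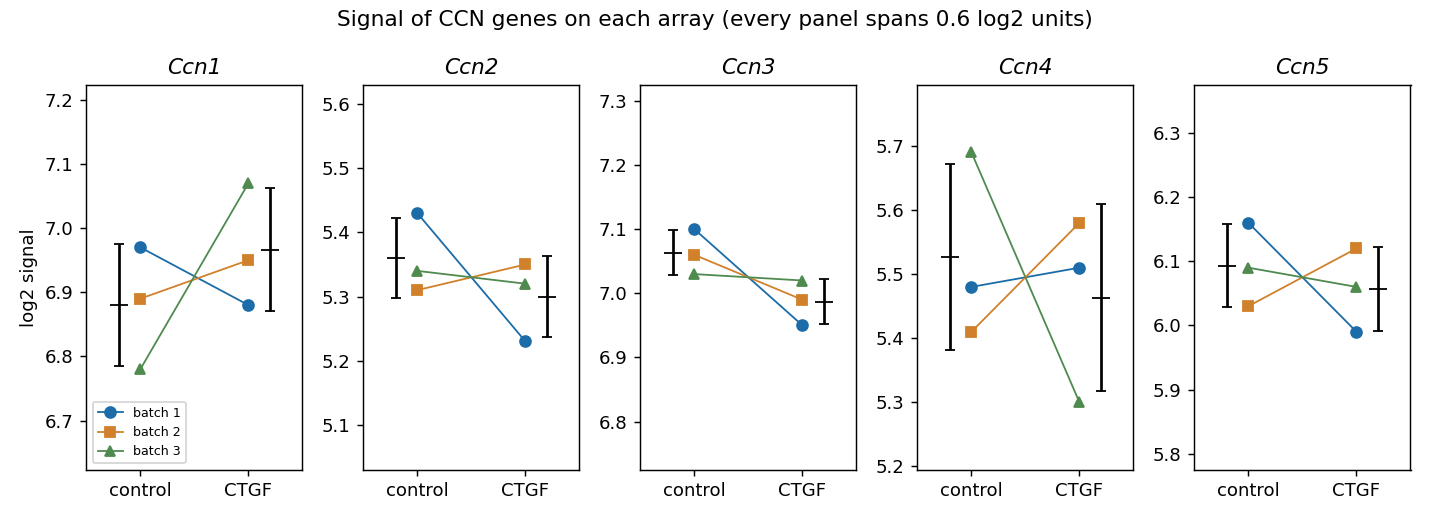
Log2 signal (vertical axis) of the 5 CCN genes on the control and CTGF arrays (horizontal axis), with a line joining the 2 arrays of each culture batch and black bars for the mean ± SD of 3 arrays. Each panel spans 0.6 log2 units, the groups of Ccn3 alone do not overlap, and the steepest line is that of Ccn4 in batch 3, from 5.69 to 5.30.

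**Figure D2:**
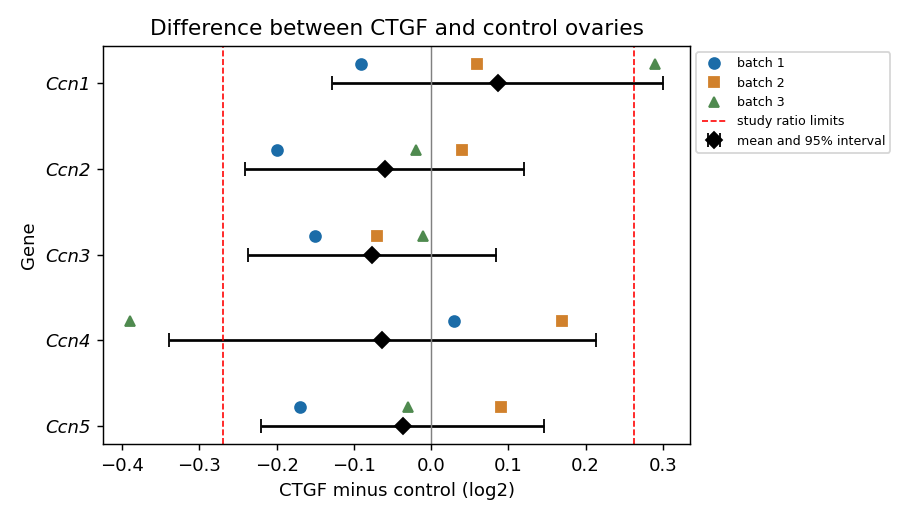
CTGF minus control on the log2 scale (horizontal axis) for each CCN gene (vertical axis), as the mean with its 95% interval from limma (black diamonds and bars) and as the differences of the 3 culture batches (coloured symbols). All 5 intervals include 0, and those of Ccn2, Ccn3 and Ccn5 lie between the study's ratio limits of 0.83 and 1.2 (dashed lines).

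In none of the 3 batches were all 5 members on the same side of control. In batch 1, 4 of the 5 were below control, with a median of -0.15, where 49.0% of all probe sets were below and the median of all was 0. In batch 2 only Ccn3 was below control, beside 51.2% of all probe sets. In batch 3 again 4 of 5 were, with a median of -0.02, beside 47.4% of all probe sets. Ccn2 and Ccn5 had nearly the same differences in the 3 batches, at a Euclidean distance of 0.059, and 0.552% of the other probe sets lay closer to Ccn2 than Ccn5 did. Ccn3 was at a distance of 0.121 from Ccn2, and 4.79% of the other probe sets lay closer. Ccn1 and Ccn4 had opposite signs in batches 1 and 3, and 95.7% of the other probe sets lay closer to Ccn1 than Ccn4 did. These patterns rest on 3 numbers a gene, and were described without a test.

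Among 9443 other named probe sets above the background level, the closest to Ccn2 were Kctd6 and Acta1, both at a distance of 0.017, but 249 lay within 0.1. The closest to Ccn1 were Spt1 at 0.010 and Stc2, a secreted glycoprotein hormone, at 0.033, and 52 lay within 0.1. For Ccn3 they were Nfib, a transcription factor, at 0.017 and Park7, which protects from oxidative stress, at 0.020, with 375 within 0.1. For Ccn4 they were Meis1, a homeobox transcription factor, at 0.032 and Oxnad1 at 0.033, with 35 within 0.1. For Ccn5 they were Angel2 at 0.017 and Cd200, an immune inhibitory ligand, at 0.024, with 262 within 0.1. With 3 differences a gene, many genes resemble a member whose differences are small.

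Markers of ovarian cell types differed between the paired pools, and the medians of some lists resembled the batch pattern of a member. The 8 measured stroma genes (Nr2f2, Pdgfra, Dcn, Col1a1, Tcf21, Lum, Col3a1 and Mfap5) had a median difference of 0.13, 0.03 and -0.42 in batches 1, 2 and 3, beside 0.03, 0.17 and -0.39 for Ccn4. In batch 3 all 8 were below control, from Lum, a proteoglycan of collagen fibrils, at -1.08 and Pdgfra, the receptor that marks mesenchyme, at -1.03 to Tcf21 at -0.18 and Mfap5 at -0.02. In batch 1 0 of 8 were below. In batch 2, where Ccn4 was above control, 2 of 8 were below, Lum at -0.08 and Pdgfra at -0.14. The summed un-logged signal of the 8 genes ran from 5065 to 6290 in control and from 4507 to 5564 in CTGF ovaries, so the groups overlapped. The 7 endothelial genes had medians of 0.05, 0.03 and -0.36. The part of these markers in the difference of Ccn4 was not tested.

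The 10 measured pre-granulosa genes were Kitlg, Wnt4, Rspo1, Fst, Lgr5, Krt19, Amhr2, Hsd17b1, Irx3 and Gata4. They had a median of -0.18, 0.07 and -0.02, beside -0.20, 0.04 and -0.02 for Ccn2 and -0.17, 0.09 and -0.03 for Ccn5. In batch 1, 8 of the 10 were below control, with Fst, which encodes the activin antagonist follistatin, at -0.36 and Wnt4, a female somatic cell signal, at -0.35. Kitlg at 0.14 and Lgr5 at 0.04 were above control in that batch. Single markers could depart from the median, as Fst had 0.04 and 0.13 and Wnt4 0.23 and -0.07 in batches 2 and 3. The summed signal of the 10 genes ran from 7045 to 7604 in control and from 6903 to 7453 in CTGF ovaries. Of the other lists, all 6 mast cell genes had a mean below control, with medians of -0.03, -0.44 and -0.35 and summed signals of 437 to 616 and 307 to 412, and 3 of them had an unadjusted p under 0.05 in limma, beside 3.35% of all probe sets, while 0 passed the adjusted test. At the same unadjusted threshold 1 oocyte gene, the receptor Kit at 0.19, and 1 macrophage gene, the complement gene C1qa at -0.21, were also found (adjusted p = 0.994 for both, limma). Oocyte genes had medians of 0.04, 0.05 and 0.21, smooth muscle and pericyte genes 0.05, 0.04 and -0.12, and macrophage genes -0.06, -0.04 and -0.17. Surface epithelium genes had -0.03, 0.04 and 0, mesonephros genes 0.07, 0.18 and 0, and blood genes 0.05, -0.24 and 0.04. No cell type list had a median below 0 in batch 1 and above 0 in both other batches, as Ccn1 had. The pairs of member and marker list set side by side here were chosen after their values were seen, and no part of the markers in the CCN differences was tested.

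**Figure D3:**
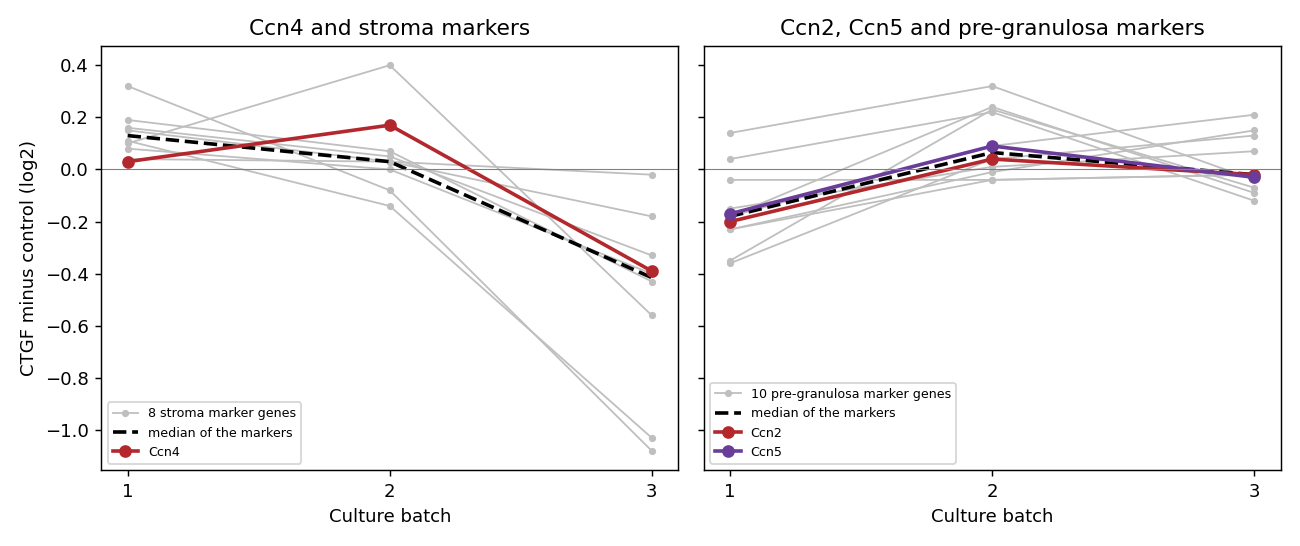
CTGF minus control on the log2 scale (vertical axis) in culture batches 1 to 3 (horizontal axis) for Ccn4 with 8 stroma markers (left) and for Ccn2 and Ccn5 with 10 pre-granulosa markers (right), with each marker in grey and the median of the markers dashed. In batch 3 Ccn4 was at -0.39 and the stroma median at -0.42, and in batch 1 Ccn2 was at -0.20 and the pre-granulosa median at -0.18.

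The genes around the family in its pathway were examined from 6 lists. Of the ligand and transcription inputs known to act on Ccn1 and Ccn2, 32 of 39 listed genes were measured through a named probe set, and 0 passed when adjusted over all probe sets. A listed gene without such a name can still have a probe set on the array. Of the 32, 5 were higher in all 3 batches and 1 was lower in all 3. Among all probe sets, 20.3% had the same sign in all 3 batches and 10.9% were lower in all 3, so these counts were near the background. Tgfb3 was among the 5, with differences of 0.12, 0.12 and 0.07. Its mean of 0.10 had a standard error of 0.06 (unadjusted p = 0.150, adjusted p = 0.994, limma). The study reports a small but significant increase of this transcript with CTGF. Srf, the serum response factor, had a log2 signal of 6.81, 6.73 and 6.80 in control ovaries and 6.58, 6.65 and 6.59 with CTGF, so the groups did not overlap. Its difference was -0.17 with a standard error of 0.07, the only one of the 32 with an unadjusted p under 0.05 (0.0415, adjusted p = 0.994, limma). This p was over 0.05 with median-centred arrays (0.0553), with an intensity trend (0.0695), in the 2-way test (0.0664) and without replicate 1 (0.142) or 3 (0.120). The TEAD factors whose motif is shown above had differences of 0.04 (Tead1), -0.10 (Tead2) and -0.10 (Tead3), their coactivators Yap1 and Wwtr1 had 0.06 and -0.01, and none of these 5 had the same sign in the 3 batches. Vgll1 was also listed but had no named probe set here, and the study lists it as raised by CTGF. The widest difference of the list was that of Pgr, the progesterone receptor, named here after its values were seen, with 0.29, -0.01 and -1.41 in the 3 batches.

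Of 22 measured target genes of YAP and SRF outside the family, 16 had a mean above and 6 below control, with a median difference of 0.03, and 0 passed the adjusted test. Of the 22, 7 were higher in all 3 batches and 0 were lower in all 3. Among all probe sets, 51.1% had a mean below control, 20.3% had the same sign in all 3 batches and 10.9% were lower in all 3. Egr1, an immediate early transcription factor that SRF drives, had 7.03, 7.0 and 7.05 in control ovaries and 7.29, 7.31 and 7.26 with CTGF. Its groups did not overlap, and its difference of 0.26 with a standard error of 0.06 was the only one of the list with an unadjusted p under 0.05 (0.0063, adjusted p = 0.994, limma). Egr1 is on the study's list of genes chosen on these samples, so its direction is not independent evidence. Ccn1, induced through the same serum response factor, had a mean difference of 0.09 with both signs among the batches. The YAP targets Ankrd1, Amotl2 and Axl had 0.01, -0.03 and 0.01, and Ankrd1 was below the background level. Other genes of the list lay further from 0, with Asap1 at 0.11, Nuak2 at 0.10 and F3 at -0.20.

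Of the receptors and co-receptors that bind CCN proteins, 19 of 24 listed genes were measured, with 10 above and 9 below control and a median difference of 0.01. None passed the adjusted test and 0 had an unadjusted p under 0.05 in limma. The integrin subunits Itgb1, Itgb5, Itga5 and Itga6 had differences of 0.01, 0.03, 0.05 and 0.04. Lrp1, an endocytic receptor that clears CTGF, had -0.05, and Sdc4, a heparan sulfate proteoglycan at focal adhesions, had -0.02. The smallest p of the list belonged to Itgam, a leukocyte integrin subunit, at -0.19 (standard error 0.09, adjusted p = 0.994, limma), with a signal below the background level. Itgav and Itgb3, which form a main CCN receptor, had no named probe set.

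Of 17 measured matrix and fibroblast genes that respond to CTGF in other cells, 7 were above and 10 below control, and 0 passed the adjusted test, with 0 at an unadjusted p under 0.05 in limma. Timp1, an inhibitor of metalloproteinases, had the smallest p of them, at a difference of 0.15 with a standard error of 0.08 (adjusted p = 0.994, limma). The list moved by batch, with medians of 0.09, 0.15 and -0.33 and 14 of 17 genes below control in batch 3. Col1a1, the main fibrillar collagen chain, had 0.10, 0.40 and -0.56, Fn1, fibronectin, 0.27, -0.21 and -0.57, and Mmp2, a gelatinase, 0.12, -0.11 and -0.57. Col1a1, Col3a1 and Dcn are also on the stroma list.

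Of the other matricellular genes 14 were measured, with 6 above and 8 below control, a median of -0.02 and 0 at an unadjusted p under 0.05 in limma. Smoc2, a calcium-binding matrix protein, had the smallest p of them at -0.12 (standard error 0.07, adjusted p = 0.994, limma). Periostin (Postn) had 0.24, -0.35 and -0.34 in the 3 batches and Sparc 0.01, 0.13 and -0.13. Of 24 measured genes that share a protein module with the CCN family, such as the IGF-binding proteins, 10 were above and 13 below control, with a median of -0.01 and 0 past the adjusted test. Chrdl2, a chordin-like BMP antagonist with von Willebrand type C modules, was the only one with an unadjusted p under 0.05, at -0.19 (standard error 0.07, adjusted p = 0.994, limma), and its signal was below the background level. Its unadjusted p was 0.0316, and it was 0.0572 in the 2-way test and 0.117 and 0.0955 without replicate 1 and 3. Over the 6 lists, 3 of 121 measured genes, or 2.48%, had an unadjusted p under 0.05 in limma, beside 3.35% of all probe sets.

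**Figure D4:**
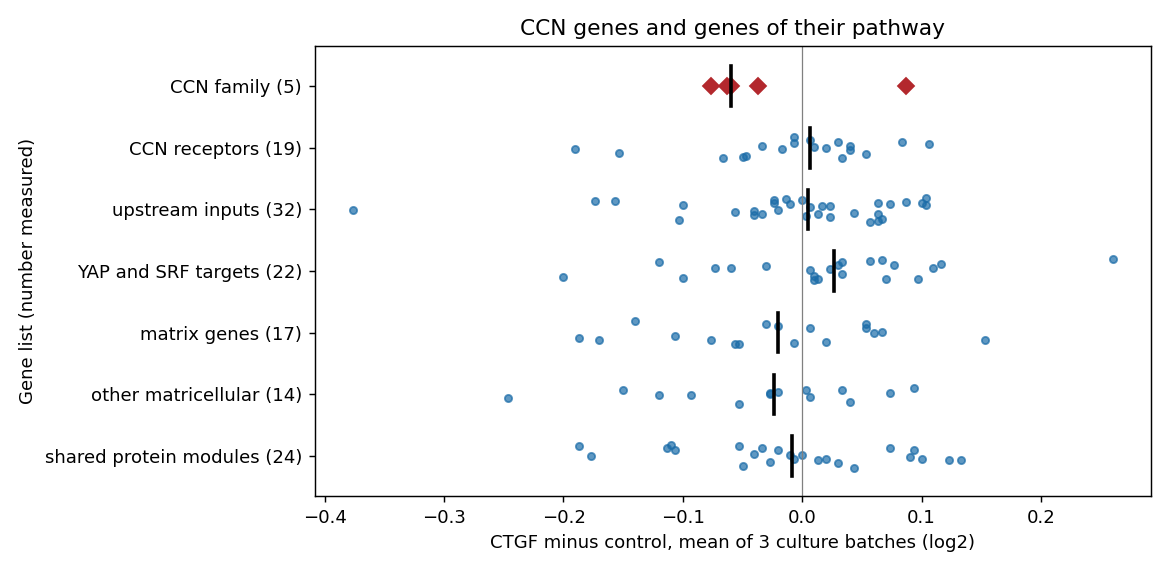
CTGF minus control on the log2 scale, mean of 3 culture batches (horizontal axis), for the 5 CCN genes (red diamonds) and the measured genes of 6 pathway lists (blue points, vertical axis, shifted at random within a row), with the median of each list as a black bar. The list medians lie between -0.02 and 0.03 and that of the CCN genes at -0.06, and the rightmost point is Egr1 at 0.26.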

How the data were processed

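Signals of Affymetrix Rat Gene 1.0 ST arrays of 6 samples were used, 3 control and 3 CTGF, grouped by their titles. The deposited values are log2 signals with 2 decimals, which the authors made with RMA in Partek, as the processing notes name them, with a GC-content adjustment per the methods. The batch means were equal to within 0.005, a step that the methods do not describe. No pair of arrays was identical (0 pairs), and depth is limited by the number of arrays.

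Probe sets were named from the platform annotation, and 15067 of 15097 with 1 symbol were matched to a RefSeq gene of GRCr8 by Entrez number, while 323 had several symbols and 11922 none. Of a gene with several probe sets, the one with the highest mean signal was taken. All 27342 probe sets were fitted in limma 3.58.1 (R 4.3.3, lmFit and eBayes) with treatment and culture batch as terms, which leaves 2 residual and 4.22 prior degrees of freedom. The pairing comes from the labels, which name the batch, and the methods block for it, so correlations between paired arrays add nothing. The procedure was tested on simulated data, where recovery was required only of the largest change put in. That test does not tell which smaller changes 3 pairs can detect. Replicates are separate pools of pups. Each limma p-value measures the spread of the 3 paired differences, CTGF minus control, moderated by the spread of all probe sets.

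The members and lists were chosen with earlier results of these data known. Named genes are the members, from each list up to 2 genes a direction with the smallest unadjusted p under 0.05 (otherwise the 1 with the smallest p), and the 2 genes closest to each member in the 3 paired differences; Pgr and other list members with values were named after these were seen. Alternatives were no block, quantile or median normalization, a filter on low signal, trend, robust and 2-way tests, another background and each replicate left out. Array intensities were not used here.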

Additional observations from a re-analysis of the deposited data

How the results depend on the processing

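No CCN gene passed an adjusted p of 0.05 under any of the alternatives, and 0 of 5 had an unadjusted p under 0.05 in any of them. Without the replicate block the differences were the same by construction (0.09 for Ccn1 and -0.06 for Ccn2), the adjusted p of Ccn3 was 0.324 (0.324 to 1 over its alternatives), and 4415 probe sets instead of 915 had an unadjusted p under 0.05, since this fit counts degrees of freedom that the batch step had used; 0 passed after adjustment. No adjusted call of a gene named from the lists changed without the block, but unadjusted p-values over 0.05 became 0.0271 for Itgam, 0.0481 for Timp1 and 0.0397 for Smoc2. Without replicate 2 that of Itgam was 0.0233. Of the 3 genes of the 6 gene lists (cell type markers aside) with an unadjusted p under 0.05, Egr1 alone stayed under it in every alternative run. Among probe sets above the silent genes 436 had such a p, with fewer tested, and Ccn2 was left out. At the study's criteria the count of 119 became 30 with the methods' 2-way test and 185 to 273 with a replicate left out. Leaving out 1 replicate gave differences of -0.015 to 0.18 for Ccn1, -0.11 to 0.01 for Ccn2, -0.11 to -0.04 for Ccn3, -0.18 to 0.10 for Ccn4 and -0.10 to 0.03 for Ccn5, so only Ccn3 kept its sign. The sign turned without replicate 1 for Ccn2 and Ccn5 and without replicate 3 for Ccn1 and Ccn4. The other scalings kept all 5 signs. Members above background were 4 of 5, beside 55.7% of all probe sets. They were 3 by the olfactory receptors and 5 by the median of the silent genes. Signals near background limit what Ccn2 and Ccn4 can show.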
